A study of Homo sapiens with 6 samples.

Results

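The 8 heme synthesis enzymes ALAS1, ALAS2, ALAD, UROS, UROD, CPOX, PPOX and FECH and the mitochondrial glycine carrier SLC25A38 were examined in K562 cells after knockdown of PCBP1. These 9 genes were chosen by name, and GENCODE release 44 assigns them 125 of the 251612 matched transcripts in the series and 9 of its 62252 genes. Of the 125 transcripts, 100 reached 0.1 TPM (relative abundance scaled by transcript length and library total) in at least 3 libraries, and 5 were listed at 0 in all 6 libraries. K562 is an established erythroleukemia line. It was transduced with lentivirus carrying a short hairpin RNA against luciferase (shCtrl, n = 3) or against PCBP1 (shPCBP1, n = 3), and both groups were kept in 3 µg/mL puromycin for 4 days. Poly-A RNA was sequenced from whole transduced populations, and no source used here says whether the libraries came from separate cultures, so p-values measure only the spread between these libraries. Fewer cells of a type and less RNA per cell cannot be told apart in such bulk samples.

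Heme is built from glycine and succinyl-CoA, starting in the mitochondrion, passing through the cytosol and ending in the mitochondrion again. The first enzyme, 5-aminolevulinate synthase, is rate-limiting and has a ubiquitous form (ALAS1) and an erythroid form (ALAS2), and the last, ferrochelatase (FECH), inserts iron into protoporphyrin IX. ALAS2 mRNA carries an iron-responsive element (IRE), a stem-loop through which iron regulatory proteins hold back translation when iron is scarce. PCBP1 binds C-rich RNA, takes part in splicing, and delivers iron within the cytosol.

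The sequences shown first are those to which the results below refer. The ALAS2 element is the point at which iron acts on the pathway's first erythroid step. It lies in the 5′ UTR at chrX:55030942-55030969 (GRCh38, minus strand), and capitals mark an unpaired C, a stem of 5 bases, the CAGTGN loop and the returning stem.
ALAS2 iron-responsive element: ttcgttCGTCCTCAGTGCAGGGCaacag
With G-T pairs allowed, this pattern was found in 1 of the 9 genes and in 39 of 19192 protein-coding genes with an annotated 5′ UTR (0.203%).

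The next sequences are the 50 bases that precede 5 of the splice acceptors whose use differed between the groups. Not printed are a further ALAS1 acceptor, with 26% C, and the FECH acceptors, with 24% and 20% C. Each printed sequence is read 5′ to 3′ on the gene's own strand (GRCh38), ends at the last intron base, and carries runs of 3 or more C in capitals. The first acceptor opens a 177-base exon in the 5′ UTR of ALAS1 (chr3:52198622-52198671, plus strand). The ALAD pair lies 166 bases apart (near, chr9:113392170-113392219, and upstream, chr9:113392336-113392385, minus strand), and the UROD pair lies 50 bases apart (near, chr1:45012857-45012906, and upstream, chr1:45012807-45012856, plus strand). Near and upstream are told from the exon body, so use of the upstream acceptor lengthens the exon.
ALAS1 5′ exon acceptor: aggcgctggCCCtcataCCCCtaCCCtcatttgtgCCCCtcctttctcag
ALAD near acceptor: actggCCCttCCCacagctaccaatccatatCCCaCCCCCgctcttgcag
ALAD upstream acceptor: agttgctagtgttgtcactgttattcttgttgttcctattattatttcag
UROD near acceptor: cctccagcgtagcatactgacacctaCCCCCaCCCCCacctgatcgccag
UROD upstream acceptor: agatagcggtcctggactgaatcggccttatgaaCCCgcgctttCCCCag
C made up 44% of the ALAS1 window, 48% of the ALAD near window and 50% of the UROD near window. It made up 14% of the ALAD upstream window and 32% of the UROD upstream window. Over 120653 acceptors of transcripts averaging at least 1 TPM the median was 22%, and as many C as in these windows stood before 7.24%, 3.65%, 2.44%, 81.2% and 26.9% of them, in the same order.

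Total estimated counts per library ran from 83033656 to 140522444 in shCtrl and from 67066747 to 85121124 in shPCBP1. Libraries of one group differed by more than counting error (chi-square over degrees of freedom 6.85 to 18.5). The targeted gene checked the labels: the shCtrl libraries held 40566, 38409 and 37799 normalized PCBP1 counts, and the shPCBP1 libraries 6625, 7277 and 7221. The 10 erythroid markers of K562 summed to 34245 to 41905 TPM in shCtrl and 39449 to 41534 TPM in shPCBP1. Sums in shCtrl and shPCBP1 were 16 to 20.4 and 6.84 to 8.46 TPM for 8 megakaryocyte markers, 64.7 to 76.6 and 47.8 to 64.8 for 4 T and B cell markers, and 45.9 to 52 and 45.3 to 53 for 4 monocyte and granulocyte markers. They were 7.06 to 8.19 and 4.57 to 5.77 TPM for 3 fibroblast markers, and at most 0.285 TPM for 3 hepatocyte markers. Most of the T and B cell sum was CD3D, at 61.7 to 73.73 TPM in shCtrl and 46.49 to 63.04 TPM in shPCBP1. Most of the monocyte and granulocyte sum was LYZ, at 45.56 to 51.73 TPM in shCtrl and 44.91 to 52.59 TPM in shPCBP1. Of the megakaryocyte markers, ITGA2B fell (13.1 to 17.04 TPM in shCtrl and 3.29 to 5.09 TPM in shPCBP1) while ITGB3 rose (2.09 to 2.65 and 2.79 to 4.004 TPM), with DESeq2 adjusted p of 9.05e-11 and 1.84e-05, and GP9, PF4 and PPBP stayed under 0.1 TPM. The part of these differences in the results below was not tested.

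Of the 9 genes, 3 passed the DESeq2 Wald test (Benjamini-Hochberg adjusted p under 0.05 over 17095 genes), and all 3 were lower in shPCBP1: PPOX, UROS and CPOX. This share, 33.3%, lies near the 31.2% of all genes that passed, of which 17.7% of genes were higher and 13.5% lower. Among the 9369 genes whose normalized count averaged 1000 or more, where all 9 lie, 44.9% passed and 56.1% had groups that did not overlap. None of the 9 passed the study's further requirement of an absolute log2 fold change over 1 with a mean count over 10, which 1.37% of genes met. The median log2 fold change was -0.12 over the 9 genes and 0.00 over all genes tested.

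**Figure D1:**
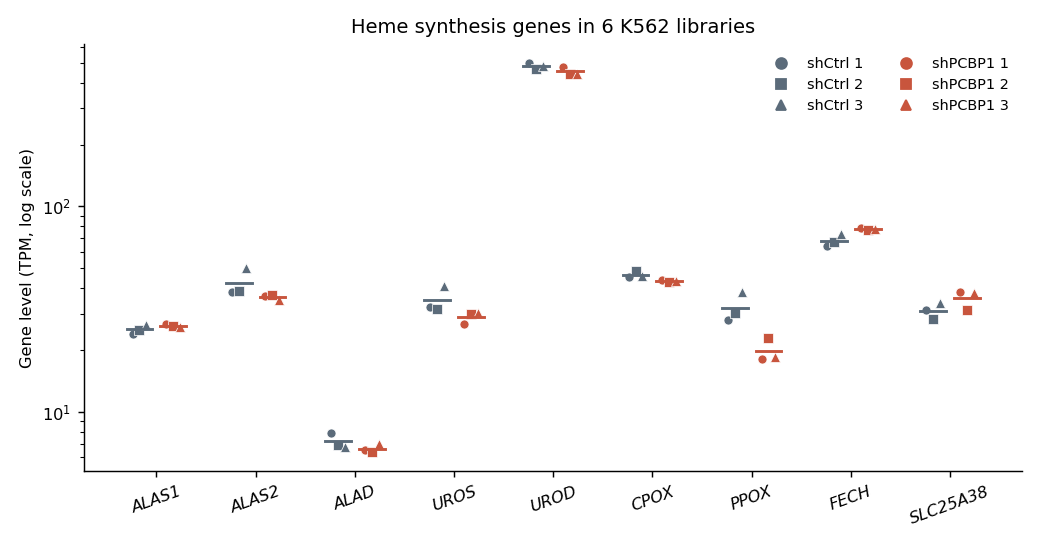
Gene level in TPM (log scale) of the 9 genes, with 1 symbol per library and a bar at each group's mean. UROD stands highest at 441 to 497 TPM, ALAD lowest at 6.37 to 7.86 TPM, and the clearest separation of the groups is in PPOX.

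Per length of RNA, in TPM, the 9 genes lay far apart. In shCtrl the mean was highest for UROD (481 ± 15.9 TPM, SD, n = 3), followed by FECH (68.2 ± 4.43), CPOX (46.6 ± 1.52) and ALAS2 (42.3 ± 6.81). UROS (35.0 ± 5.27), PPOX (32.2 ± 5.54), SLC25A38 (31.1 ± 2.84) and ALAS1 (25.2 ± 1.30) came next, and ALAD was lowest (7.18 ± 0.60). UROD, FECH, ALAS1 and ALAD stood clear of their neighbours in every shCtrl library. CPOX and ALAS2 overlapped, and so did ALAS2, UROS and PPOX, and PPOX and SLC25A38. The erythroid form of the first enzyme was higher than the ubiquitous form in each library, ALAS2 at 35.0 to 50.2 TPM against ALAS1 at 24.0 to 26.7 TPM.

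The glycine carrier and the first enzyme did not pass. SLC25A38 (chr3:39383370-39397351, plus strand), which brings glycine into the mitochondrion, was counted at 4442, 4034 and 4854 (normalized counts) in the shCtrl libraries and at 5205, 4599 and 4903 in the shPCBP1 libraries. The groups overlapped, and the log2 fold change was 0.14, with SE 0.069 and a DESeq2 adjusted p of 0.108. It passed without the third shCtrl library (0.21, adjusted p 0.0147) and was 0.08 without the second. ALAS1 (chr3:52198086-52214327, plus strand) had 3777, 4027 and 4161 normalized counts in shCtrl and 4159, 4220 and 4080 in shPCBP1. Its log2 fold change was 0.06 with a 95% interval of -0.05 to 0.17 (DESeq2 adjusted p 0.476).

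ALAS2 (chrX:55009055-55030977, minus strand) had 5125, 4894 and 6553 normalized counts in shCtrl and 4958, 5171 and 4764 in shPCBP1. The third shCtrl library stood above the other 5, which lay together. The log2 fold change was -0.15 (95% interval -0.43 to 0.12, DESeq2 adjusted p 0.444), and it was -0.01 without that library. It passed without the second shCtrl library (-0.23, adjusted p 0.0353). Nearly all ALAS2 TPM began at 1 annotated start, 99.6% or more in every library, and that first exon carries the element printed above. Its 2 most abundant transcripts, ALAS2-209 and ALAS2-201, took 51.9% ± 1.06 and 32.5% ± 0.22 of the gene in shCtrl and 54.8% ± 1.57 and 30.0% ± 6.18 in shPCBP1.

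Binding sites of GATA factors, which drive erythroid genes, were looked for as the hexamer WGATAR (A or T, then GATA, then A or G) on both strands. In the RefSeq promoter table (GRCh38.p14), 8 of the 9 genes matched, UROS being the exception, with 10 windows of 250 bases before a start. A hexamer stood in 4 of these 10 windows, those of ALAS2, CPOX, PPOX and ALAD, and in 22.3% of all 35093 windows. The ALAS2 window is printed because it is the erythroid gene and lies wholly before its start (chrX:55030978-55031227, minus strand), with the hexamer in capitals.
ALAS2 promoter: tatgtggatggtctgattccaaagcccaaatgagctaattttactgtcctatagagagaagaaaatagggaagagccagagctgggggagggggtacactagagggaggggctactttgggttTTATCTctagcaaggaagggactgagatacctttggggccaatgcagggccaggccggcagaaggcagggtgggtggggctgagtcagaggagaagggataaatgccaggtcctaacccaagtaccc

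Of the cytosolic enzymes, only UROS passed. ALAD (chr9:113386312-113401290, minus strand) joins aminolevulinate molecules into porphobilinogen. Its normalized counts were 1443, 1349 and 1270 for shCtrl against 1323, 1125 and 1300 for shPCBP1, with overlapping groups and a log2 fold change of -0.12 (DESeq2 adjusted p 0.385). Counted on protein-coding transcripts alone, ALAD fell by 0.53 on the log2 scale (adjusted p 0.000315), and its transcripts are described below.

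UROS (chr10:125784980-125823258, minus strand) closes the linear tetrapyrrole into uroporphyrinogen III. It had 3342, 3204 and 4168 normalized counts in shCtrl and 2807, 2970 and 3103 in shPCBP1, so that all shPCBP1 libraries lay below all shCtrl libraries. UROS fell by 0.27 on the log2 scale (SE 0.086, DESeq2 adjusted p 0.00692). The third shCtrl library was far above the other 2, and without it the fall was 0.15 (adjusted p 0.113). The call was also lost without the first shPCBP1 library (-0.24, adjusted p 0.0711), with transcript length offsets (-0.26, 0.0661) and in limma on gene TPM (-0.27, 0.224), though the log2 fold changes stayed close to that of the full fit.

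UROD (chr1:45010950-45015575, plus strand), which trims the side chains of uroporphyrinogen, was the most abundant of the 9. It had 34032, 31487 and 33200 normalized counts in shCtrl and 34134, 31174 and 30616 in shPCBP1. The groups overlapped, and the log2 fold change was -0.04 (95% interval -0.13 to 0.05, DESeq2 adjusted p 0.535).

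CPOX and PPOX, which carry out successive oxidations at the mitochondrion on the way to protoporphyrin IX, both fell. CPOX (chr3:98579446-98593648, minus strand) had 7912, 8056 and 8165 normalized counts in shCtrl and 7171, 7279 and 7518 in shPCBP1. The groups were apart, and the fall was 0.14 on the log2 scale (SE 0.043, DESeq2 adjusted p 0.00711). The call was lost with transcript length offsets (-0.08, adjusted p 0.289) and in limma on gene TPM (-0.10, 0.182).

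PPOX (chr1:161166056-161178013, plus strand) changed most. Its normalized counts were 2633, 2773 and 3197 for shCtrl against 1816, 2079 and 1701 for shPCBP1, a ratio of 0.65. PPOX fell by 0.62 on the log2 scale (SE 0.089, DESeq2 adjusted p 8.55e-11), and 1.54% of the genes averaging 1000 counts or more changed as much or more. The same share was 15.6% for UROS and 45.4% for CPOX. PPOX was lower and passed in every alternative tried, with log2 fold changes between -0.71 and -0.53. Its protein-coding share was 49.6% ± 1.89 in shCtrl and 48.2% ± 6.63 in shPCBP1, and its retained-intron share was 34.6% ± 1.96 and 35.1% ± 3.16 in the same order. Single coding transcripts were unevenly divided among libraries: PPOX-201 stood at 4.46, 3.35 and 11.04 TPM in shCtrl and at 0, 7.50 and 1.44 TPM in shPCBP1. PPOX shares 1118 exonic bases (23.7% of its own) with B4GALT3 on the opposite strand. B4GALT3 stood at 54.1 to 57.3 TPM in shCtrl and 49.7 to 55.4 TPM in shPCBP1, and the part of this overlap in the PPOX result was not tested.

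FECH (chr18:57544377-57586732, minus strand) had 9580, 9120 and 10630 normalized counts in shCtrl and 10931, 10449 and 10024 in shPCBP1. The groups overlapped, and the log2 fold change was 0.10, with SE 0.055 and a DESeq2 adjusted p of 0.177. The value depended on what was counted. With transcript length offsets FECH rose by 0.21 (adjusted p 0.00643), and on protein-coding transcripts alone it was -0.18 (adjusted p 0.0982). It also passed without the third shCtrl library (0.16, adjusted p 0.0073). Most FECH TPM was assigned to transcripts with no defined coding sequence, 83.1% ± 1.12 in shCtrl and 87.3% ± 0.28 in shPCBP1, above all FECH-210 and the 564-base FECH-205.

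**Figure D2:**
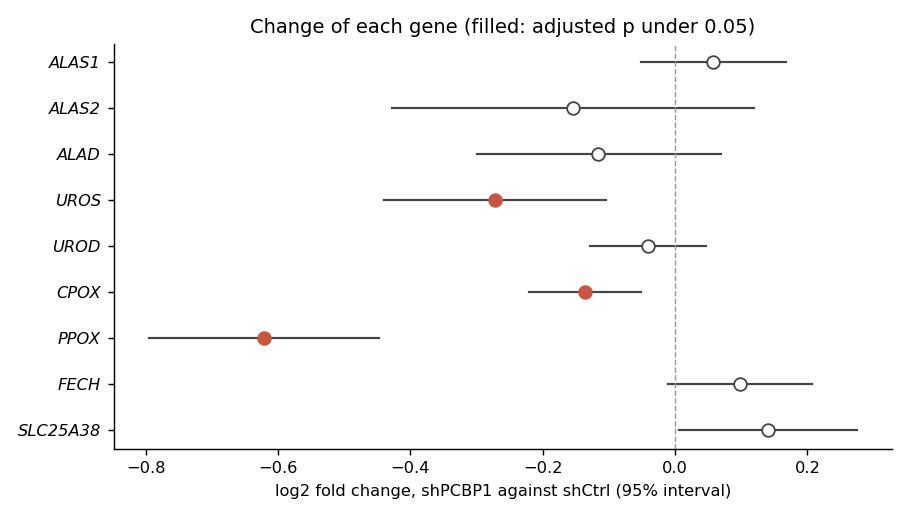
Log2 fold change of each gene (shPCBP1 against shCtrl) with its 95% interval from the DESeq2 fit, filled where the adjusted p is under 0.05. PPOX, UROS and CPOX are filled and left of 0, and the 6 others have open symbols.

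Transcripts were compared next. In limma on log2(TPM + 0.1), 1 of 100 member transcripts passed, against 1.57% of 93424 transcripts tested. This was UROD-201, the main coding transcript of UROD, at 281, 277 and 280 TPM in shCtrl and 257, 244 and 247 TPM in shPCBP1. The groups did not overlap, and UROD-201 fell by 0.17 on the log2 scale (limma adjusted p 0.0482). It lost this call in each fit without 1 library (adjusted p 0.073 to 0.167). For a transcript's share of its gene, limma called 0 of 100, with 12 at an unadjusted p under 0.05, against 0.201% of 83075 shares. DESeq2 on rounded transcript counts called 12 of 103 member transcripts, 5 higher and 7 lower, where 9.27% of 105847 transcripts passed. The 5 higher were ALAS1-201, ALAD-208, UROD-224, UROD-217 and FECH-205, and the 7 lower were ALAS1-205, ALAD-201, UROD-201, UROS-203, CPOX-204, PPOX-205 and PPOX-210.

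Splice choices were measured from these transcript estimates after their values had been seen. The TPM of all transcripts that hold an intron was divided by that of all introns with the same donor or the same acceptor. The estimates rest on annotated transcripts, not on counted junction reads. Of 63 such introns in the 9 genes, 11 had groups that did not overlap and means at least 5 points apart, and they fell in 5 genes. Over all genes, 14.1% of 70556 introns met this rule, so the share in the 9 genes is near that of all genes. With 3 libraries against 3 the smallest two-sided exact permutation p is 0.1, and each of the 11 gave that value, so none can pass a threshold of 0.05.

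In ALAS1 the 177-base 5′ exon took a smaller share in the shPCBP1 libraries. From the first exon's donor, splicing to this exon took 41.0%, 41.8% and 48.0% of TPM in shCtrl and 26.9%, 33.5% and 29.1% in shPCBP1 (43.6% ± 3.82 and 29.8% ± 3.34, exact permutation p 0.1). The groups were well apart. The direct splice to the later of the second exon's 2 acceptors, 11 bases apart, went from 10.3% ± 1.91 to 17.7% ± 1.83. The splice to the earlier one held more, 46.1% ± 4.4 in shCtrl and 52.4% ± 3.35 in shPCBP1, with overlapping groups (exact permutation p 0.2). The transcripts with and without the exon, ALAS1-201, ALAS1-202, ALAS1-204 and ALAS1-205, all hold the same 1920 coding bases, so the choice lies in the 5′ UTR. ALAS1-204, which lacks the exon, also has a shorter annotated 3′ end. Among the transcripts with the long 3′ end alone, the exon was present in 80.9% ± 3.18 of TPM in shCtrl and 62.6% ± 3.87 in shPCBP1, again without overlap. In that subset only ALAS1-201 lacks the exon. Within the earlier acceptor, splicing from the exon held 45.3% ± 4.59 in shCtrl and 32.2% ± 2.14 in shPCBP1, without overlap (exact permutation p 0.1). Within the later one it held 35.1% ± 5.44 and 21.5% ± 8.58, with overlapping groups (exact permutation p 0.2).

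In ALAD the near acceptor, with C-rich bases before it, took a smaller share in the shPCBP1 libraries and the upstream one a larger share. The upstream acceptor took 12.2%, 18.5% and 15.1% in shCtrl and 28.1%, 28.0% and 32% in shPCBP1 (15.3% ± 3.16 and 29.4% ± 2.25, exact permutation p 0.1). Every shPCBP1 library lay above every shCtrl library. The transcript that holds the longer exon, ALAD-208, is annotated as intron-retaining with no coding sequence, and it averaged 0.98 TPM in shCtrl and 1.75 TPM in shPCBP1. The coding transcript ALAD-201 stood at 4.66, 4.16 and 3.81 TPM in shCtrl and at 3.21, 2.55 and 2.95 TPM in shPCBP1. Coding transcripts together held 64.2% ± 1.58 of ALAD TPM in shCtrl and 51.2% ± 6.47 in shPCBP1, while the gene's total count did not pass the test.

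In UROD the same kind of choice was seen at a much higher level of expression, 385 TPM over both acceptors. The upstream acceptor took 13.6%, 9.89% and 12.9% in shCtrl and 20.8%, 20.4% and 17.2% in shPCBP1 (12.1% ± 1.97 and 19.5% ± 2.0, exact permutation p 0.1). The groups did not overlap. Transcripts of the upstream acceptor included UROD-224, at 14.1, 10.2 and 16.7 TPM in shCtrl and 31.0, 27.9 and 23.1 TPM in shPCBP1, and UROD-217, at 17.9, 12.7 and 12.1 TPM in shCtrl and 26.2, 26.3 and 22.6 TPM in shPCBP1. UROD-224 is annotated with 996 coding bases against 1101 in UROD-201, and UROD-217 has no defined coding sequence. The added 50 bases are not a multiple of a codon.

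**Figure D3:**
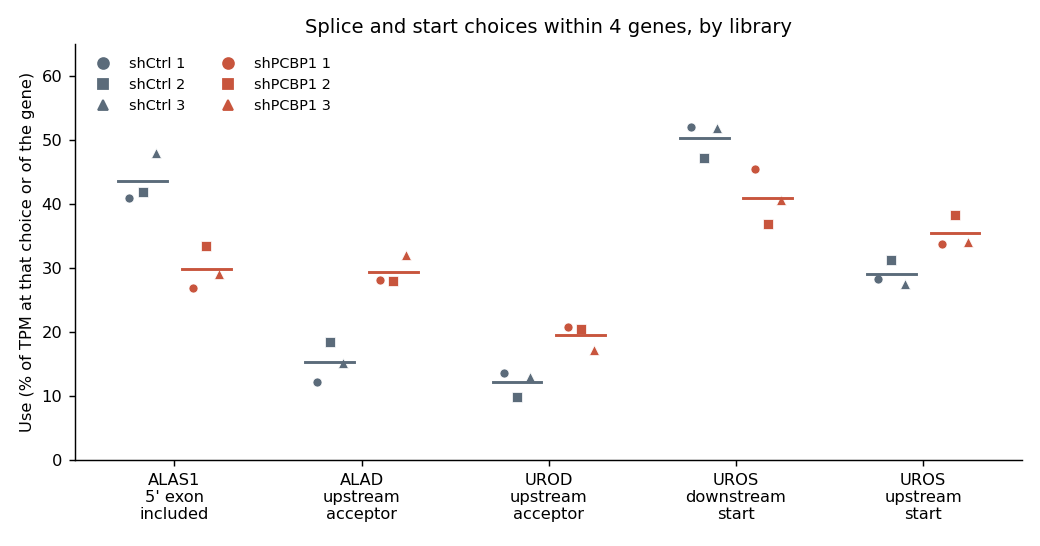
Use of 3 splice choices and of 2 groups of UROS start sites in each library, as a percent of TPM, with 1 symbol per library and a bar at each group's mean. The 5 columns were chosen among those whose groups do not overlap and whose means are at least 5 points apart. Over all genes, 14.1% of introns and 12% of start groups met this rule.

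Annotated starts within 200 bases of each other were taken as 1 group, and 20 such groups in the 9 genes held 5% to 95% of their gene's TPM. The libraries of shCtrl and shPCBP1 did not overlap in 7 of the 20, 4 in UROS, 2 in CPOX and 1 in PPOX, where 20.1% of 20793 start groups over all genes met this rule. With means also at least 5 points apart there were 2, both in UROS and described next, where 12% of all start groups did so. In PPOX a start led by PPOX-205 took 10.8% ± 4.07 of TPM in shCtrl and 6.51% ± 1.33 in shPCBP1. Another transcript of this start stood at 3.50 TPM in the third shCtrl library and at 0 in every other library. PPOX-205 alone took 8.5%, 8.43% and 6.41% in shCtrl and 5.33%, 7.94% and 6.24% in shPCBP1, with overlapping groups. In CPOX the main start took 93.8% ± 0.93 and 91.5% ± 1.57 and the other start the rest, a difference of 2.28 points in TPM and 0.333 points by estimated counts. UROS is known to have a ubiquitous promoter and, further downstream, an erythroid one. Whether the annotated starts below belong to these promoters was not tested. Transcripts that start downstream (chr10:125816510-125816632, led by UROS-203) took 52.0%, 47.2% and 51.9% of UROS TPM in shCtrl and 45.4%, 36.8% and 40.6% in shPCBP1. Those that start upstream (chr10:125823039-125823258, led by UROS-204) took 28.2%, 31.3% and 27.5% in shCtrl and 33.8%, 38.3% and 34.1% in shPCBP1. Neither start's share overlapped between the groups (exact permutation p 0.1 for each). UROS-203 and UROS-204 hold the same 795 coding bases. UROS-203 stood at 15.9, 13.3 and 19.9 TPM in shCtrl and at 11.03, 10.5 and 12.3 TPM in shPCBP1. All transcripts of the downstream start averaged 17.7 and 11.8 TPM, and all those of the upstream start 10.1 and 10.2 TPM.

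In FECH and SLC25A38 the choices rest on short or rare transcripts. The donor that FECH-205 shares with the longer transcripts led to FECH-205's last exon in 35.0% ± 2.03 of TPM in shCtrl and 40.4% ± 1.52 in shPCBP1. By estimated counts instead of TPM the same shares were 5.7% and 7.28%. In SLC25A38 the intron of SLC25A38-206 took 87.9% ± 8.74 and 70.3% ± 7.88 at an acceptor that carried 5.07 TPM in all. In neither gene was C above 24% of the 50 bases before these acceptors. The SLC25A38 introns compared share their acceptor and differ in their donor, so those bases are the same for each.

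The printed windows were set beside all alternative acceptors, with classes chosen after they had been read. Of 35 member introns that share a donor with another, 4 end at an acceptor whose window is at least 40% C, and 3 of these were used less in shPCBP1 by the rule above, those of ALAS1, ALAD and UROD. The fourth, in UROS, held 5.51% ± 1.47 and 5.01% ± 2.52 with overlapping groups. Of the other 31 introns, 4 were used more and 1 less. Those used more in ALAS1, ALAD and UROD share a donor with the 3 used less, so each gain is tied to a loss. The remaining calls, 1 more and 1 less, lie at a single donor in FECH. Over all genes, 11.7% of the 3814 introns in the C-rich class were used less and 8.68% more, where 7.15% and 7.07% of all 34703 did so. For windows under 20% C the shares were 5.97% and 6.39%. These are counts over introns that share transcripts and libraries, and no test was made of them.

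**Figure D4:**
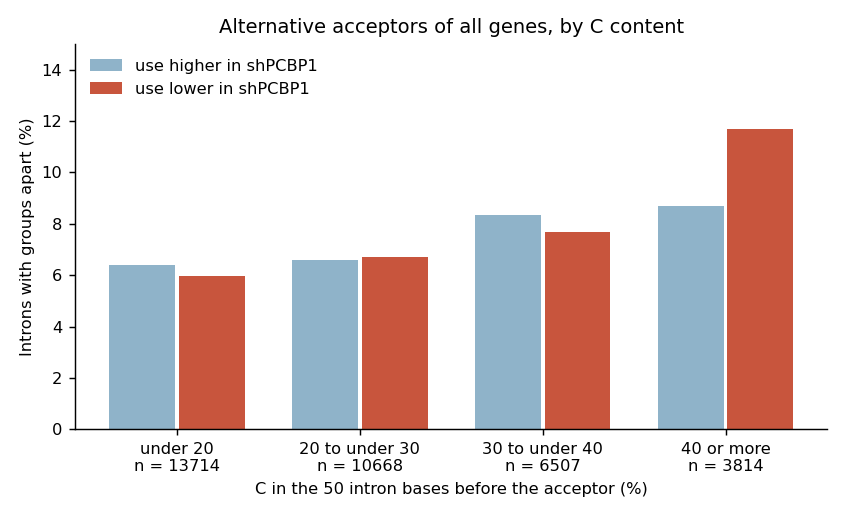
Percent of alternative introns of all genes whose use was higher or lower in shPCBP1 (groups apart and means at least 5 points apart), by the C content of the 50 bases before the acceptor. Bars for lower use are tallest, at 11.7%, where C makes up 40% or more, and the class sizes stand under the axis.

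Genes around the pathway were taken from fixed lists. Of all genes 31.2% passed, and of genes averaging 1000 counts or more, where most list genes lie, 44.9% passed. Of 13 mitochondrial iron, porphyrin and ALAS2 partners, 6 fell, 1 rose and 6 did not pass, with a median log2 fold change of -0.11. The falls were led by ABCB6, a porphyrin transporter (-0.45, DESeq2 adjusted p 1.01e-10), and FAM210B, a mitochondrial protein needed for erythroid heme (-0.25, 3.06e-10). ABCB10, which stabilises the iron importer mitoferrin 1, fell by 0.14 (DESeq2 adjusted p 0.00135). The importer itself, SLC25A37, had a log2 fold change of 0.08 and TMEM14C, a protoporphyrinogen carrier, -0.07 (adjusted p 0.161 and 0.243). SLC25A28, mitoferrin 2, rose by 0.19 (adjusted p 0.0484).

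Of 9 tested genes of heme export, uptake and breakdown, 2 fell and 1 rose, and the median was -0.07. BLVRB, biliverdin reductase B, fell by 0.46 (DESeq2 adjusted p 1.52e-30), HEBP1, a heme-binding protein, fell by 0.32 (0.0254), and BLVRA, biliverdin reductase A, rose by 0.14 (0.0392). The heme exporter FLVCR1 stood at -0.07 (adjusted p 0.369). HMOX1, heme oxygenase 1, was listed at 0 in 5 libraries and at 3 estimated counts in the first shCtrl library, and it was not tested.

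Of 12 genes that supply glycine, succinyl-CoA or pyridoxal phosphate, the cofactor of ALAS1 and ALAS2, 4 rose and 1 fell, with a median of -0.01. SHMT2, which makes glycine in the mitochondrion, fell by 0.61 (DESeq2 adjusted p 3.89e-46). PDXK, a kinase on the way to pyridoxal phosphate, rose by 0.25 (adjusted p 1.47e-09), and the folate carrier SLC25A32 rose by 0.20 (0.000523). FECH and the iron regulatory protein ACO1 can each hold an iron-sulfur cluster. Of 12 genes of cluster supply, 6 rose and 1 fell, with a median of 0.08. FDXR, the reductase that feeds electrons to the ferredoxins, fell by 1.13 (DESeq2 adjusted p 2.03e-99). HSCB, a cochaperone, rose by 0.33 (adjusted p 0.0119), and ISCU, the scaffold, by 0.19 (0.0017).

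Of 7 genes of iron uptake and IRE binding, 3 rose and 0 fell by the DESeq2 test, with a median of 0.10. TFRC, the transferrin receptor, rose by 0.35 (DESeq2 adjusted p 8.01e-13), STEAP3, a ferrireductase, by 0.18 (0.0285) and ACO1 by 0.14 (0.0332). None of these 7 had an unadjusted p under 0.05 with a negative fold change. Of 8 erythroid transcription factors, 2 rose and 1 fell, with a median of 0.00. LMO2 rose by 0.28 (DESeq2 adjusted p 8.77e-08), TAL1 by 0.19 (2e-05), and LDB1 fell by 0.16 (0.000345). GATA1 and KLF1 had log2 fold changes of -0.07 and 0.07 (adjusted p 0.119 and 0.338).

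**Figure D5:**
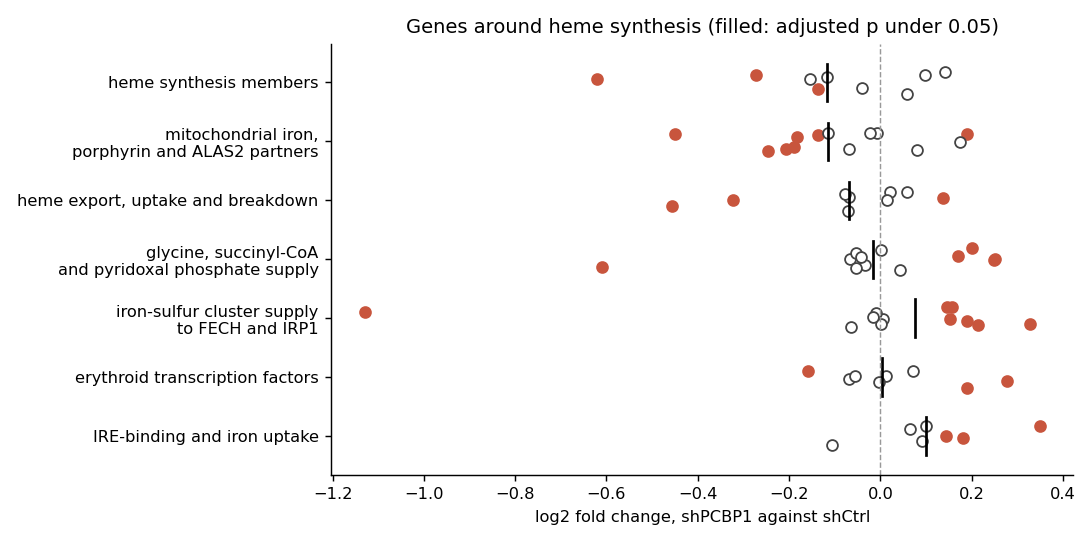
Log2 fold change (shPCBP1 against shCtrl) of each tested gene of the 7 lists, filled where the DESeq2 adjusted p is under 0.05, with a bar at each list's median. Medians lie between -0.12 for the 9 members and 0.10 for iron uptake and IRE binding, and FDXR at -1.13 stands farthest left.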

How the data were processed

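Poly-A RNA of 6 K562 libraries was analysed. Per the submitters' processing notes, the authors used Salmon 1.10.2, and the notes also name STAR 2.7.11b, DESeq2 3.19, FastQC, MultiQC and the build hg38. The deposited estimated counts (NumReads) per transcript were not normalized, and the deposited TPM values are the same estimates divided by effective length and set to a common sum. The annotation release of the index is not given in the sources used here. Of 252045 transcripts per library, 251612 matched GENCODE 44, and the others held 0.136% to 0.147% of counts and were left out.

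Estimated counts were summed per gene, rounded and tested with DESeq2 1.42.0 (Wald test, genes reaching 10 summed counts, R 4.3.3). Transcripts with TPM of at least 0.1 in 3 libraries, and their shares of the gene, were tested with limma 3.58.1 (trend) on log2(TPM + 0.1), a scale that understates changes of low transcripts. Annotated starts or ends within 200 bases were grouped. Alternative introns with a shared end were kept at a total of at least 1 TPM and a mean use of 5% to 95%. edgeR 4.0.16, other filters, pseudocounts, units and left-out libraries were alternatives. The tests were checked on simulated data whose changes were larger than those of the member genes, so smaller changes were not covered by this check. Python 3.11.15 was used.

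The members, lists and tests were chosen with earlier results of these data known. Named genes were the members, PCBP1, ABCB10, SLC25A37, TMEM14C, HMOX1, FLVCR1 and, of each other list, up to 3 largest rises and 3 largest falls that passed. Some genes that this rule names are counted in their lists but not reported here by name. GATA1, KLF1, B4GALT3, HBG2, HBE1, HBZ, GP9, PF4, PPBP, CD3D and LYZ were added after their values were seen. Transcripts named hold at least 5% of a member or passed a test. Same-numbered libraries deviated from their group means with correlations of 0.094, -0.0203 and -0.105, so the numbers were not treated as pairs.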

Additional observations from a re-analysis of the deposited data

How the results depend on the processing

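The count of 3 passing genes stayed within 2 to 4 in all but one alternative, limma on log2(gene TPM + 0.1), which called 1, PPOX. Leaving out 1 library gave 2 to 4, and the fit with the replicate block gave 3 genes. The log2 fold change of FECH turned to -0.179 when protein-coding transcripts alone were counted. Of 150 alternatives for the fold changes of the 9 genes and PCBP1, 138 kept direction and side of the threshold. The count of 1 passing transcript was 0 with a pseudocount of 1 TPM, without a TPM filter and with the replicate block, 5 with TPM of at least 1 in 3 libraries, 12 with DESeq2 on transcript counts, and 0 to 1 without 1 library. The count of 0 changed shares was 0 throughout, the replicate block included. Of 140 alternatives for shares by start, end and biotype, 127 moved by less than the spread between libraries, and 1 changed sign: the share of the 3′ end of FECH-210 was 0.754 points higher in shPCBP1 by NumReads. Of 77 for intron use, added after seeing the data, 72 moved by less than that spread, and the other 5, all by NumReads, were in ALAD, FECH and SLC25A38. The cause of these differences was not tested. Transcript estimates of ALAD rest on 1125 to 1443 normalized counts for the whole gene, the fewest of the 9.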

Other observations

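Globins are the main users of heme in erythroid cells. Of the 10 K562 markers, which hold 6 globin genes, 2 passed as higher in shPCBP1 by the DESeq2 test, HBG1 and TFRC, and 0 as lower, where 17.7% of all genes passed as higher. Of the 10, 9 had a log2 fold change above 0, as did 8612 of all 17095 genes tested. The marker below 0, GATA1, stood at -0.07 with an unadjusted p of 0.0462. TFRC is also counted among the iron uptake genes, and of the 6 globin genes only HBG1 passed. HBG1, a fetal globin, rose by 0.16 (adjusted p 0.00356), an uncertain split because HBG1 and HBG2 are near-identical, and HBG2 stood at 0.07 (adjusted p 0.285). The embryonic HBE1 and HBZ had log2 fold changes of 0.20 and 0.28 (adjusted p 0.117 and 0.387).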
